A study of Mus musculus with 16 samples.

Results

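Acetylcholine receptor subunits and the proteins that hold or clear acetylcholine signalling at the neuromuscular junction were followed across 16 one-colour arrays of mouse skeletal muscle. The genes are 10 of the 28964 tested: Chrna1, Chrnb1, Chrnd, Chrng, Chrne and Chrna9, which encode nicotinic receptor subunits, and Ache, Musk, Rapsn and Dok7. They were found through the RefSeq accession that the array file pairs with each probe, which gave 12 of the 55681 probes, with a pair of probes each for Chrna1 and Ache and 1 probe for every other gene. All 10 genes passed the filter on dim probes, which asked for 4 or more of the 16 arrays with a signal well above background. Chrna1 and Chrna9 were picked for their difference between genotypes, so their genotype values are given as a description with no test, while the other 8 genes were chosen by role.

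The muscle acetylcholine receptor is a ligand-gated cation channel of the postsynaptic membrane, built from alpha, beta and delta subunits with a gamma subunit in the fetus and an epsilon subunit in the adult. Motor nerve contact gathers the receptor under the terminal through agrin, its co-receptor LRP4 and the kinase MuSK, and electrical activity of the fibre is known to hold subunit transcription outside the synapse low. Loss of innervation raises subunit transcripts, Chrna1 and Chrng among them, along the whole fibre in rodents.

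The muscle came from male mice aged 21 to 23 weeks in 4 groups of 4, each animal on 1 array. CB1KO_HFHS and WT_HFHS animals had eaten a high fat-high sugar diet (HFHS, with 49.2% of energy as fat and 32.2% as sugar) for 15 weeks, and CB1KO_SD and WT_SD animals a standard diet (SD, 16.7% and 12.4%) for the same time. CB1KO mice carry a loxP-flanked cannabinoid 1 receptor gene (Cnr1) deleted by Cre under the ACTA1 promoter, which is active in skeletal muscle fibres, and WT mice are their control littermates. The protocol lists Cre as present in both genotypes, and the diet tag goes against the titles of the CB1KO_SD and WT_HFHS arrays, so genotype and diet were taken from the titles, which the source names and descriptions match. It also mentions vehicle or S961, without saying which animals received which, and it does not name the muscle dissected.

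Between 56.74% and 75.04% of the spots of an array stood well above background and 0 were saturated. The spread of signal set 2 arrays apart: the SD of log2 signal was 3.973 on CB1KO_HFHS replicate 1 and 2.89 on CB1KO_SD replicate 2, against 3.14 to 3.688 on the others. The HFHS arrays filled 1 slide and the SD arrays another, so a diet difference cannot be told apart from a slide difference. Each genotype comparison within a diet lies within 1 slide. On both slides, however, the WT arrays lay in row 1 and the CB1KO arrays in row 2. A genotype difference therefore cannot be told apart from a difference between these rows. The 9 markers of the skeletal muscle fibre were well above background on every array. Cnr1 averaged -2.23 ± 0.70 in CB1KO_HFHS and -2.09 ± 0.64 in WT_HFHS, and -2.77 ± 0.71 in CB1KO_SD and -2.54 ± 0.73 in WT_SD (log2 intensity relative to the 75th percentile of the array, mean ± SD, n = 4 each). Whether its probe lies within the deleted part is not known, so it checks neither label. Levels below are on this log2 scale, and differences are CB1KO minus WT or HFHS minus SD.

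Promoter letters are shown for the 4 subunits whose CB1KO and WT arrays lay apart on HFHS and for Musk, whose arrays overlapped. The windows are the 250 bases before the gene start, 5′ to 3′ on the strand of the gene, from RefSeq on GRCm38.p6, a table that held 8 of the 10 genes and lacked Chrnd and Rapsn. Capitals mark the E-box CANNTG, the letters that MyoD and myogenin bind, and the N-box CCGGAA, the letters that GABP, an ETS factor of synaptic nuclei, binds. Both strands were searched, CANNTG reads alike on both, and no matches overlapped within these windows. The windows lie at chr2:73580339-73580588 for Chrna1 (minus strand), chr11:69795938-69796187 for Chrnb1 (minus), chr11:70619195-70619444 for Chrne (minus), chr5:65966874-65967123 for Chrna9 (plus) and chr4:58285712-58285961 for Musk (plus).
Chrna1: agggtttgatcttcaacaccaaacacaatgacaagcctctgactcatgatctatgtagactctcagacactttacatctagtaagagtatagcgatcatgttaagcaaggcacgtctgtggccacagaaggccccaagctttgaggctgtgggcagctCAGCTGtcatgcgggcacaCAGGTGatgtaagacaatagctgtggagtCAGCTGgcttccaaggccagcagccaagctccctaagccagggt
Chrnb1: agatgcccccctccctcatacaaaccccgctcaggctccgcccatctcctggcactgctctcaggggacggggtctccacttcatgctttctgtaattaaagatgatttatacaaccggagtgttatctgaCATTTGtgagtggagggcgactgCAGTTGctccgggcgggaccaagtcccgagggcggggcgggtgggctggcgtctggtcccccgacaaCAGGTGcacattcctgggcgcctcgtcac
Chrne: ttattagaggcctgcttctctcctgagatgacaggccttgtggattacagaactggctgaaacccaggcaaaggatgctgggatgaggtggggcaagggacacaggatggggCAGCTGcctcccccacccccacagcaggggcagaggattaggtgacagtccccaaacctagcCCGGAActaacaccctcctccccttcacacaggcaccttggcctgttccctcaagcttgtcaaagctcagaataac
Chrna9: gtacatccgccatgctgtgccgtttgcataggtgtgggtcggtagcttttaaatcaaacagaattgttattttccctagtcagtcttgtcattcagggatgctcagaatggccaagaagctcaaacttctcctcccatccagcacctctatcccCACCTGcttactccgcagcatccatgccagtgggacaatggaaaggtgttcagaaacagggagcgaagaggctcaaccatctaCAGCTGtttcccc
Musk: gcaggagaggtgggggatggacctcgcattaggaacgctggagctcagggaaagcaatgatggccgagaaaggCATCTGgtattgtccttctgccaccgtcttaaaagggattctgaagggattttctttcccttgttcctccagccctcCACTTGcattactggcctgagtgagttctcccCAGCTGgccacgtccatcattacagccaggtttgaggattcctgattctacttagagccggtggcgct

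The Chrna1 window holds 3 E-boxes, which start 92, 73 and 44 bases before the gene start, and no N-box. The Chrnb1, Chrng and Musk windows also hold 3 E-boxes each, Chrna9 holds 2, and Chrne and Ache hold 1. Of 32851 promoters of this length, 66.2% hold at least 1 E-box, 31.8% at least 2 and 12.2% at least 3. Chrne is the only one of these genes with an N-box, 76 bases before its start, and 12% of all promoters hold that motif. Dok7 has 2 annotated starts, 1 with a single E-box and 1 with none. A match is a string of letters and was not tested as a binding site.

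Chrna1 encodes the alpha subunit, which carries the acetylcholine binding site. It stood at 3.74, 5.06, 5.77 and 5.65 in CB1KO_HFHS muscle, against 2.32, 2.32, 2.69 and 2.50 in WT_HFHS muscle. It stood at 4.10, 2.84, 2.98 and 4.29 in CB1KO_SD muscle, against 2.07, 1.77, 2.36 and 3.01 in WT_SD muscle. Every CB1KO_HFHS array lay above every WT_HFHS array, while on SD the lowest pair of CB1KO arrays fell just under the highest WT array. The log2 difference was 2.59 ± 0.44 (SE) on HFHS, which is 6.04-fold, 1.25 ± 0.44 or 2.38-fold on SD, and 1.92 ± 0.31 or 3.79-fold averaged over diets. A second Chrna1 probe, on the same transcript, gave 2.70, 1.50 and 2.10, and the pair correlated across the 16 arrays with Pearson r = 0.989. Without CB1KO_HFHS replicate 1 and CB1KO_SD replicate 2, the arrays of unusual signal spread, the HFHS difference was 3.03 and the SD difference 1.49. In whole muscle, more cells of a type and more RNA per cell cannot be told apart.

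Chrna9 encodes a subunit best known from the cochlear hair cell receptor and not from the muscle receptor. It was a dim gene here: WT_SD replicate 2 was not well above background, and the other 15 arrays were. It stood at -1.52, -0.51, 1.78 and 0.30 in CB1KO_HFHS muscle, against -2.84, -2.81, -2.55 and -3.43 in WT_HFHS muscle. In CB1KO_SD muscle it stood at -1.65, -0.45, -2.36 and -1.07, against -2.60, -4.09, -3.38 and -2.44 in WT_SD muscle. The genotypes did not overlap on either diet, though CB1KO_SD replicate 3 lay only just above the highest WT_SD array. The log2 difference was 2.92 ± 0.60 on HFHS (7.57-fold) and 1.74 ± 0.60 on SD (3.34-fold). The HFHS value was 2.33 without CB1KO_HFHS replicate 3 and 2.11 with normexp background correction and quantile normalization, and the SD value was 1.19 with the same correction. Groups lay apart in this direction on both diets for 0.145% of all genes tested, and Chrna9 was picked for this contrast, so nothing is read from that share.

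**Figure D1:**
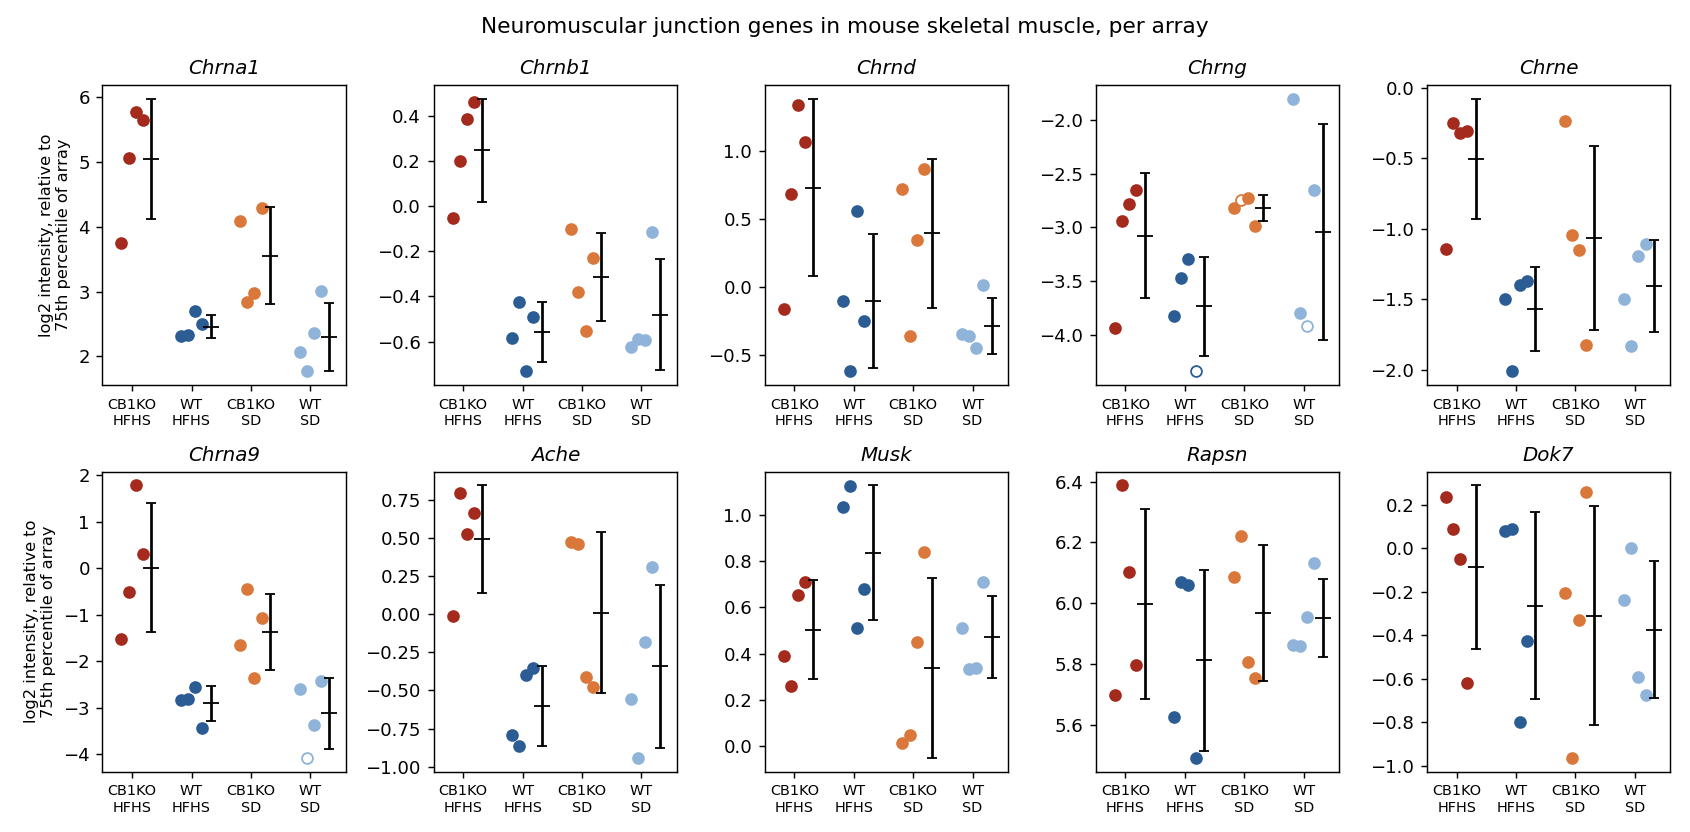
Log2 intensity relative to the 75th percentile of the array (vertical axes, a scale of its own for each gene) of the 10 genes in CB1KO_HFHS, WT_HFHS, CB1KO_SD and WT_SD muscle; each point is 1 array, open points were not well above background, and black bars show the mean ± SD (n = 4). Chrna1 and Chrna9 lie highest in CB1KO_HFHS muscle, Chrnb1, Chrne and Ache lie apart from WT on HFHS, and Musk, Rapsn and Dok7 overlap between genotypes on both diets.

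Of the 8 genes chosen by role, 0 passed the limma test on HFHS, against 0.235% of all genes. The threshold was a Benjamini-Hochberg adjusted p under 0.05 over all genes. An unadjusted limma p under 0.05 was reached by 4 of the 8, against 2597 of the 28964 genes tested. Chrnb1, the beta subunit, came closest. It stood at -0.05, 0.20, 0.38 and 0.46 in CB1KO_HFHS muscle, against -0.59, -0.42, -0.73 and -0.49 in WT_HFHS muscle. The genotypes lay apart, with CB1KO_HFHS replicate 1 the nearest to WT, and the log2 difference was 0.81 ± 0.16 (1.75-fold, limma adjusted p = 0.0568). This value passed in 8 of 29 alternative settings, and in the others the limma adjusted p reached 0.225. The 8 included fits without CB1KO_HFHS replicate 1 (0.91, limma adjusted p = 0.0275) and without WT_SD replicate 4 (0.81, limma adjusted p = 0.0342). They also included dropping both arrays of unusual signal spread and a covariate for that spread, chosen after seeing the data. Over all genes these 8 settings called 77 to 2096, against 68 in the fit reported here. On SD the Chrnb1 values were -0.10, -0.38, -0.55 and -0.23 in CB1KO muscle, against -0.62, -0.59, -0.59 and -0.11 in WT muscle. These overlapped because of WT_SD replicate 4, and the difference was 0.16 ± 0.16 (limma adjusted p = 0.853), which ran from 0.093 without CB1KO_SD replicate 1 to 0.29 without WT_SD replicate 4.

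Chrne encodes the epsilon subunit of the adult receptor. It stood at -1.15, -0.25, -0.32 and -0.31 in CB1KO_HFHS muscle, against -1.50, -2.01, -1.40 and -1.37 in WT_HFHS muscle. The genotypes lay apart on HFHS, again with CB1KO_HFHS replicate 1 lowest among the CB1KO arrays, and the log2 difference of 1.07 ± 0.31 (2.09-fold) did not pass (limma adjusted p = 0.244). On SD, Chrne stood at -0.24, -1.05, -1.15 and -1.83 in CB1KO muscle, against -1.50, -1.83, -1.19 and -1.11 in WT muscle. A single CB1KO_SD array was far above WT there, the groups overlapped, and the difference was 0.34 ± 0.31 (limma adjusted p = 0.841), which ran from 0.066 without CB1KO_SD replicate 1 to 0.60 without CB1KO_SD replicate 4.

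Chrnd, the delta subunit, had values of -0.17, 0.68, 1.33 and 1.07 in CB1KO_HFHS muscle, against -0.11, -0.62, 0.55 and -0.26 in WT_HFHS muscle. On SD they were 0.72, -0.36, 0.34 and 0.87 in CB1KO muscle, against -0.35, -0.37, -0.45 and 0.01 in WT muscle. On each diet 3 of the 4 CB1KO arrays lay above all WT arrays and the fourth lay among them, on both diets the array of unusual signal spread. The log2 difference was 0.84 ± 0.34 on HFHS (limma adjusted p = 0.486) and 0.68 ± 0.34 on SD (limma adjusted p = 0.616). Leaving out both of those arrays gave 1.13 on HFHS and 0.93 on SD.

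Chrng, the gamma subunit of the fetal receptor, stood well above background on 13 arrays, the fewest of the 10 genes. It had values of -3.93, -2.94, -2.78 and -2.65 in CB1KO_HFHS muscle, against -3.82, -3.47, -3.30 and -4.34 in WT_HFHS muscle. In CB1KO_SD muscle it had -2.82, -2.74, -2.73 and -2.99, against -1.80, -3.80, -3.92 and -2.65 in WT_SD muscle. The genotypes overlapped on both diets, and WT_SD replicate 1 held the highest value of all. The log2 difference was 0.65 ± 0.42 on HFHS (limma adjusted p = 0.689, 95% interval -0.24 to 1.55) and 0.22 ± 0.42 on SD (limma adjusted p = 0.935, 95% interval -0.68 to 1.12). On SD it ran from -0.07 without WT_SD replicate 3 to 0.64 without WT_SD replicate 1.

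Ache encodes acetylcholinesterase, which ends the signal in the synaptic cleft. It stood at -0.01, 0.79, 0.52 and 0.66 in CB1KO_HFHS muscle, against -0.79, -0.86, -0.40 and -0.35 in WT_HFHS muscle. The genotypes lay apart on HFHS, and the log2 difference of 1.09 ± 0.30 (2.13-fold) did not pass (limma adjusted p = 0.203). The second Ache probe gave 1.14 on HFHS and followed the first across arrays with r = 0.946. On SD, Ache stood at 0.47, 0.46, -0.41 and -0.48 in CB1KO muscle, against -0.56, -0.94, -0.18 and 0.31 in WT muscle. Of the CB1KO_SD arrays 2 were above WT and 2 among it, with a difference of 0.35 ± 0.30 (limma adjusted p = 0.827), which was 0.15 without WT_SD replicate 2 and 0.57 without WT_SD replicate 4.

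The genes that gather and anchor the receptor gave the smallest differences. Musk encodes the receptor tyrosine kinase that receives the agrin signal. It stood at 0.39, 0.26, 0.65 and 0.71 in CB1KO_HFHS muscle, against 1.04, 1.12, 0.51 and 0.68 in WT_HFHS muscle, and it was the only one of the 10 genes with a difference below 0 on each diet, at -0.33 ± 0.20 on HFHS (limma adjusted p = 0.670) and -0.14 ± 0.20 on SD (limma adjusted p = 0.913), where it was 0.04 with array weights. Relative to the median of all genes, which lay at -0.13 on HFHS and -0.12 on SD, the Musk difference was -0.20 on HFHS and -0.02 on SD. Rapsn encodes rapsyn, which ties receptors to the cytoskeleton, and its level ran from 5.70 to 6.39 in CB1KO_HFHS, 5.49 to 6.07 in WT_HFHS, 5.75 to 6.22 in CB1KO_SD and 5.86 to 6.13 in WT_SD muscle. Its difference was 0.18 ± 0.18 on HFHS (95% interval -0.21 to 0.58) and 0.01 ± 0.18 on SD (95% interval -0.38 to 0.41). Dok7, an adaptor that activates MuSK from inside the fibre, differed by 0.18 ± 0.28 on HFHS (95% interval -0.43 to 0.78) and 0.07 ± 0.28 on SD (95% interval -0.54 to 0.67), where it was -0.0693 with normexp and -0.0403 with quantile normalization. The intervals of Rapsn and Dok7 contain 0 on both diets. Dok7 went with the signal spread of the arrays (r = 0.723 with the SD of log2 signal over 16 arrays, as a description), and Rapsn ran against it (r = -0.531), while the same r was 0.117 for Chrna1.

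**Figure D2:**
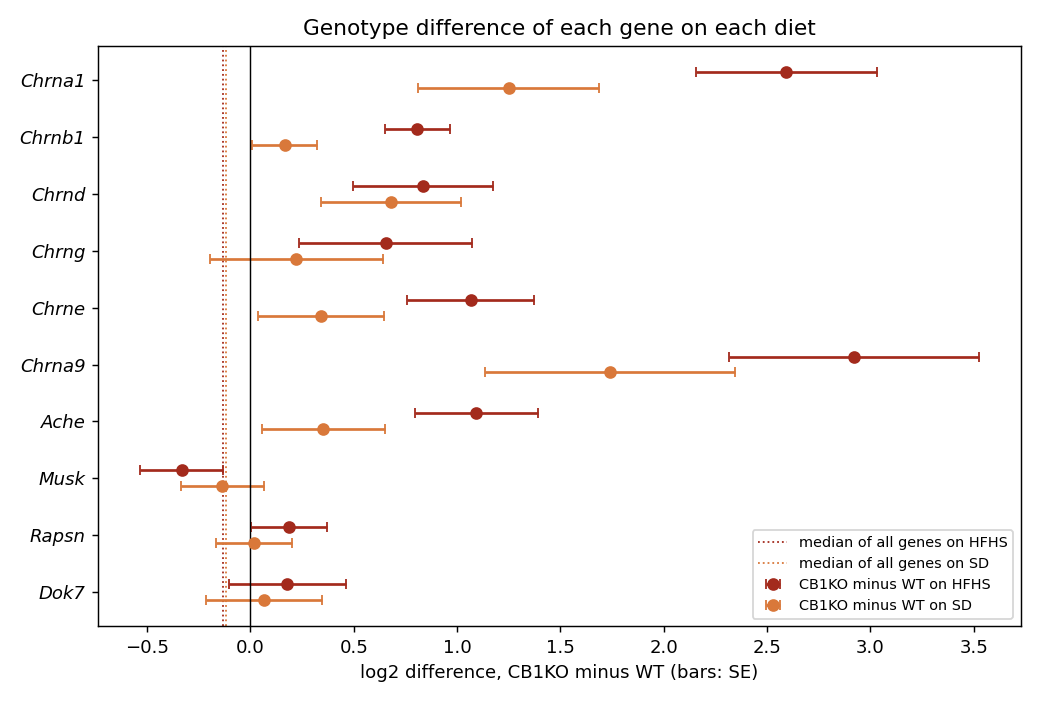
Log2 difference between CB1KO and WT muscle (horizontal axis) for each gene on HFHS and on SD, with bars of 1 SE from the limma fit and dotted lines at the median of all 28964 genes. Chrna1 and Chrna9, picked for this contrast, lie farthest right; Chrnb1, Chrne and Ache lie farther from 0 on HFHS than on SD; Musk lies left of 0 on both diets.

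On HFHS 3 of the 8 genes chosen by role (Chrnb1, Chrne and Ache) lay wholly above WT, against 3.36% of all genes tested, and on SD 0 of 8 did, against 0.981% of all genes. The difference was above 0 for 7 of the 8 on HFHS (32.3% of all genes), on SD (32.6%) and averaged over diets (28.7%), and the median over the 8 was 0.73 on HFHS and 0.19 on SD. On SD 0 of the 8 passed the limma test, against 0.00345% of all genes. There 0 had an unadjusted p under 0.05, against 2527 of the 28964 genes tested. Averaged over both diets, 0 of the 8 passed, against 0.708% of all genes, and 4 had an unadjusted p under 0.05, against 4126 of 28964. The averaged log2 differences were 0.49 ± 0.11 for Chrnb1 (limma adjusted p = 0.0673), 0.72 ± 0.21 for Ache (0.135), 0.70 ± 0.22 for Chrne (0.157) and 0.76 ± 0.24 for Chrnd (0.171). They were 0.44 ± 0.30 for Chrng, 0.12 ± 0.20 for Dok7, 0.10 ± 0.13 for Rapsn and -0.23 ± 0.14 for Musk, with limma adjusted p from 0.477 to 0.794. With array weights Chrnb1, Chrnd, Chrne and Ache passed, averaged and on HFHS, a setting in which 6.77% of all genes passed averaged and 7.24% on HFHS.

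The design also asks whether diet changes these genes, and whether the genotype difference depends on diet. Chrna1 levels were ordered CB1KO_HFHS (5.05 ± 0.93), CB1KO_SD (3.55 ± 0.75), WT_HFHS (2.46 ± 0.18) and WT_SD (2.30 ± 0.53). The CB1KO groups overlapped between diets, and so did the WT groups. Within CB1KO, HFHS minus SD was 1.50 ± 0.44 for Chrna1 and 1.39 ± 0.60 for Chrna9, given with no test since these contrasts share the CB1KO_HFHS values of the genotype difference they were picked for. It was 0.56 ± 0.16 for Chrnb1 (limma adjusted p = 0.233). Of the 8 genes chosen by role 0 passed, against 0.0276% of all genes. An unadjusted p under 0.05 was reached by 1 of the 8, against 2770 of the 28964 genes tested. Chrnb1 was the only one of the 10 whose diets lay apart within CB1KO, which 2.56% of all genes did in this direction. Without CB1KO_HFHS replicate 3 the Chrna9 value was 0.81.

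Within WT, HFHS minus SD was 0.16 ± 0.44 for Chrna1, -0.08 ± 0.16 for Chrnb1 and 0.22 ± 0.60 for Chrna9. Here 0 of the 8 genes chosen by role passed (limma), against 0% of all genes. An unadjusted p under 0.05 was reached by 0 of the 8, against 1745 of the 28964 genes tested. The 95% interval for Chrna1 within WT ran from -0.78 to 1.099. The largest diet differences within WT were -0.69 ± 0.42 for Chrng and 0.36 ± 0.20 for Musk (limma adjusted p = 0.940 and 0.915). For the dependence of genotype on diet, the interaction was 1.34 ± 0.62 for Chrna1, likewise with no test, and 0.64 ± 0.22 for Chrnb1 (unadjusted p = 0.0120 and adjusted p = 1.00 from limma). The interaction passed for 0 of the 8 genes chosen by role and for 0% of all genes, so a larger genotype difference on HFHS than on SD was not established for any of them.

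Within the CB1KO arrays, Chrnb1 and Chrnd followed Chrna1 most closely. Over the 8 CB1KO arrays Pearson r with Chrna1 was 0.948 for Chrnb1, 0.851 for Chrnd, 0.749 for Chrna9, 0.583 for Chrne and 0.533 for Ache. It was 0.508 for Musk, 0.272 for Dok7, 0.178 for Chrng and 0.130 for Rapsn. Over the 8 WT arrays it was 0.544 for Chrnb1, 0.563 for Chrnd, 0.656 for Chrna9, 0.649 for Chrne and 0.807 for Ache, against 0.245 for Musk and -0.699 for Dok7. After the group means were taken out, r over the 16 arrays was 0.851 for Chrnd, 0.786 for Chrnb1, 0.599 for Chrna9, 0.450 for Ache and 0.448 for Chrne. It was 0.357 for Musk, 0.355 for Chrng, 0.204 for Rapsn and -0.135 for Dok7, so Ache and Chrne lay little above Musk and Chrng. These are descriptions: the genes share each array and its scaling, and the CB1KO arrays also span both slides.

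**Figure D3:**
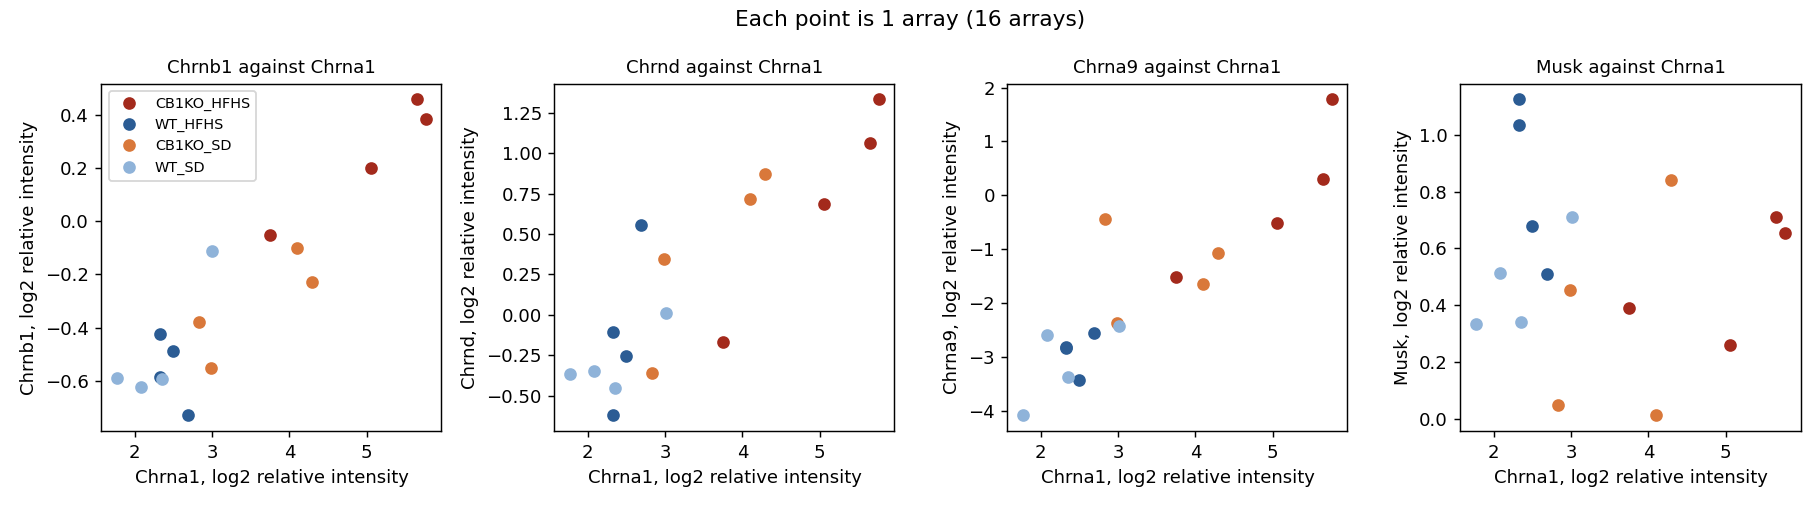
Log2 relative intensity of Chrnb1, Chrnd, Chrna9 and Musk (vertical axes) against that of Chrna1 (horizontal axes) in the 16 arrays, 4 of each group. Chrnb1, Chrnd and Chrna9 climb with Chrna1 within the CB1KO arrays, with r = 0.948, 0.851 and 0.749 over these 8 arrays, and Musk has r = 0.508 there.

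The genes whose pattern was most like that of Chrna1 over all 16 arrays, among 17283 other genes with a symbol, were Tnnt2 (r = 0.969), the cardiac troponin T that fetal skeletal muscle also makes, Osbpl3 (0.957), Fgl1 (0.944), Dnajc5g (0.938) and Sgk2 (0.929). Fgl1, Dnajc5g and Sgk2 stood well above background on 0 of the 8 WT arrays, so their likeness rests on the CB1KO arrays. Chrnb1 would take rank 5 in this order (r = 0.931), Chrna9 rank 25 and Chrnd rank 41. The genes running most against Chrna1 were Stab2 (-0.926), Htra4 (-0.920), Bmpr1b (-0.899), 1700001O22Rik (-0.894) and Trim54 (-0.886). For Chrna9 the most alike were Smc1b (0.934), Cd5 (0.931), Cacnb4 (0.924), Catsperg1 (0.918) and Sgk2 (0.918). Catsperg1 and Sgk2 stood well above background on 0 of the 8 WT arrays and Smc1b on 1, so their likeness rests on the CB1KO arrays. Tnpo2 (-0.972) and Dmd, which encodes dystrophin (-0.906), ran most against it, followed by Amy1 (-0.905), Lgr4 (-0.905) and Sorbs2 (-0.903). These r values hold the genotype difference itself and were not tested.

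Other genes of the junction were counted in lists chosen with earlier results of these data known. Nicotinic subunits outside the muscle receptor, mostly neuronal, had 7 of 10 genes bright enough to test. For CB1KO minus WT averaged over diets 0 of these passed, against 0.708% of all genes. Above 0 lay 1, against 28.7% of all genes, with a median of -0.20 beside -0.12 over all genes. Chrnb4 (-0.20 ± 0.18, limma adjusted p = 0.637) and Chrna10, the usual partner of Chrna9 in the cochlea (-0.25 ± 0.27, limma adjusted p = 0.691), had the smallest p of that list. In the agrin pathway and its scaffold 0 of 25 passed, against 0.708% of all genes, and 11 lay above 0, against 28.7%. The median was -0.03, beside -0.12 over all genes. The smallest p there belonged to Syne1, a nuclear anchor of the fibre (-0.54 ± 0.13, limma adjusted p = 0.0848), Pak1 (0.47 ± 0.15, 0.183), Colq, the collagen tail of acetylcholinesterase (-0.28 ± 0.10, 0.208), and Macf1 (0.27 ± 0.10, 0.227). Agrn and Lrp4, the agrin ligand and its co-receptor, named here for that role after their values were seen, had 0.11 ± 0.14 and -0.03 ± 0.16.

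In the neuregulin pathway and synaptic transcription 0 of 18 tested genes passed, against 0.708% of all genes, and 10 lay above 0, against 28.7%. The median was 0.04, beside -0.12 over all genes. Etv4, an ETS factor, had 0.49 ± 0.17 (limma adjusted p = 0.200), Ptpn11 -0.34 ± 0.15 (0.322), Erbb3, a neuregulin receptor, -1.05 ± 0.47 (0.335) and Etv1 -0.35 ± 0.16 (0.342). The last list held 17 genes known in rodents to respond to denervation or inactivity, Chrng among them. Averaged over diets 3 rose and 0 fell (limma, against 0.318% of all genes higher and 0.39% lower). Of the 17, 11 lay above 0, against 28.7% of all genes, and the median was 0.44, beside -0.12. Those that rose were Sln, an inhibitor of the calcium pump (4.27 ± 0.50, limma adjusted p = 0.00218), and the growth arrest genes Gadd45a (0.65 ± 0.12, 0.0291) and Cdkn1a (1.54 ± 0.29, 0.0322). Sln passed without any 1 array, while Gadd45a lost its call in 7 of the 16 fits that left out an array (WT_SD replicate 1, CB1KO_SD replicate 4, WT_HFHS replicates 1, 2 and 4 and CB1KO_HFHS replicates 3 and 4, with limma adjusted p up to 0.0764). Cdkn1a lost its call in 10 of them (the same 7, WT_SD replicates 3 and 4 and CB1KO_SD replicate 1, with limma adjusted p up to 0.0844), and its difference was 0.73 as the mean of its probes (limma adjusted p = 0.103). Cdkn1a also lost its call with the replicate block (limma adjusted p = 0.0797) and Gadd45a with the slide as a block (limma adjusted p = 0.0901). Sln and Gadd45a passed on HFHS as well, where 0.235% of all genes did. Sln did not pass where the HFHS groups alone were fitted (limma adjusted p = 0.0607). Gadd45a did not pass without WT_HFHS replicates 1, 2 or 3 or CB1KO_HFHS replicates 3 or 4 (limma adjusted p up to 0.0938). On SD 0 of the 17 passed, against 0.00345% of all genes, and Sln had 2.68 ± 0.71 there (limma adjusted p = 0.276). Myod1, which binds E-boxes, had 0.97 ± 0.22 averaged over diets (limma adjusted p = 0.0604). Next by p were Runx1 (0.71 ± 0.19, limma adjusted p = 0.107), Myog, which encodes myogenin (1.17 ± 0.33, 0.120), and Myh3 (2.83 ± 0.80, 0.124). On the same list 6 genes lay below 0. The ubiquitin ligases Trim63 and Fbxo32, also named after their values were seen, were among these. They had -0.50 ± 0.21 and -0.45 ± 0.19 (limma adjusted p = 0.300 and 0.302). Whether denervation plays a part in these values was not tested.

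**Figure D4:**
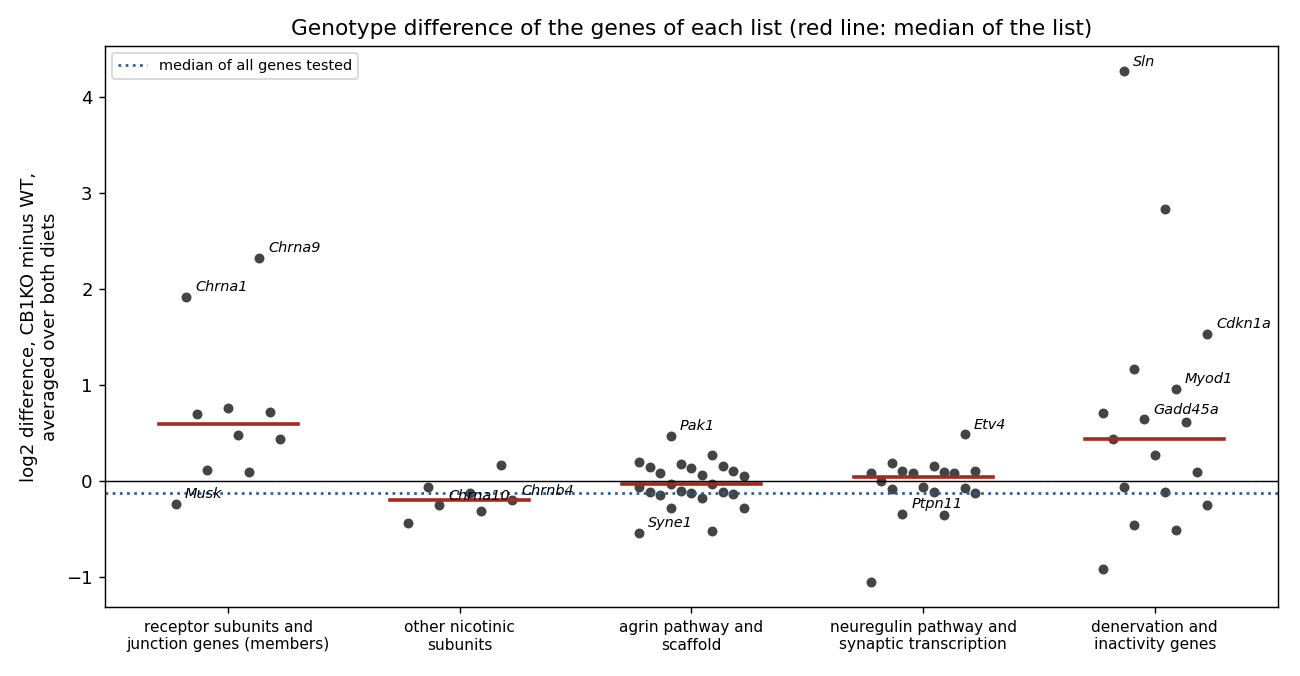
Log2 difference between CB1KO and WT muscle averaged over both diets (vertical axis) for the 10 receptor and junction genes and for each further list; each point is 1 gene, the red line is the median of the list and the dotted line that of all genes tested. The first column includes Chrna1 and Chrna9, picked for this contrast. The medians of the agrin and neuregulin lists, at -0.03 and 0.04, lie above the dotted line at -0.12. Sln, at 4.27, stands highest.

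Among the markers of other cells and of slow fibres, Ngfr alone passed between genotypes, and the part of these markers in the receptor values was not tested. On HFHS 6 of 6 macrophage markers lay above 0, against 32.3% of all genes, and 0 passed, against 0.235%. Their summed intensity was 27.2 to 76.5 times the 75th percentile in CB1KO_HFHS muscle, against 17.2 to 39.6 times in WT_HFHS muscle. On SD it was 15.1 to 39.3 in CB1KO muscle and 16.7 to 46.3 in WT muscle. On SD 7 of 7 slow fibre markers lay above 0, against 32.6% of all genes, and 0 passed, against 0.00345%. Their summed intensity was 292 to 845 in CB1KO_SD muscle, against 5.45 to 236 in WT_SD muscle. On HFHS slow fibre sums were 8.49 to 666 in CB1KO muscle and 12.9 to 1005 in WT muscle. Of 10 Schwann cell markers 1 passed on HFHS, against 0.235% of all genes. It was Ngfr, a neurotrophin receptor, at 1.66 ± 0.24 (limma adjusted p = 0.0128). Without WT_HFHS replicates 1 or 2 or CB1KO_HFHS replicates 3 or 4 its limma adjusted p was up to 0.0662. Averaged over diets Ngfr had 1.20 ± 0.17 (limma adjusted p = 0.00874) and passed in all 29 alternative settings (up to 0.0310). The sum of the Schwann cell list was 24.5 to 35.1 in CB1KO_HFHS muscle and 30.9 to 39.8 in WT_HFHS muscle. Axon markers were near background, with Nefl and Chat too dim to test and a sum of 0.225 to 0.650 in CB1KO_HFHS muscle, against 0.426 to 0.645 in WT_HFHS muscle. Satellite cell markers, without Myf5, which was too dim to test, summed to 5.62 to 6.67 in CB1KO_HFHS muscle and 7.04 to 8.44 in WT_HFHS muscle. Cdh15 made up most of this sum. On HFHS 0 of the 3 tested passed, against 0.235% of all genes. The differences were -0.29 ± 0.15 for Cdh15, -0.44 ± 0.22 for Calcr and 0.06 ± 0.14 for Pax7. Of 4 adipocyte markers 0 passed on either diet, against 0.235% of all genes on HFHS and 0.00345% on SD. Their sums were 15.0 to 116 in CB1KO_HFHS and 22.1 to 54.8 in WT_HFHS muscle. On SD they were 5.63 to 88.2 in CB1KO_SD and 3.91 to 212 in WT_SD muscle.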

How the data were processed

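Total RNA of 16 muscles was labelled with Cy3 and measured on 1 array each. Per the file headers, Feature Extraction 11.5.1.1 made the deposited spot intensity values, corrected for background within each array and not scaled between arrays. In the series table that the authors deposited, each spot has a score, which equalled the z-score of log2 intensity within its array to within 0.00507. From the intensity, log2 minus the 75th percentile of the array over 55681 probes was computed, after outlier spots were set to missing and repeated spots averaged. A probe was kept where 4 or more arrays had it well above background, and the brightest stood for its gene. limma 3.58.1 in R 4.3.3 fitted 1 mean per group to all 16 arrays (lmFit, eBayes), tests were two-sided, and Benjamini-Hochberg adjustment ran over 28964 genes at a threshold of 0.05. The labels call the 4 samples of a group biological replicates, and their number limits the precision. The fit was run on simulated data with known changes and independent noise for each gene and array. That run held no effect of signal spread, slide or row, so it does not show how the fit handles them. The genes, further lists and tests were chosen with earlier results of these data known. From the lists, the text names genes that passed and those with the smallest p averaged over diets, and, for likeness, the 5 highest and 5 lowest r. The labels do not say that replicate numbers pair animals, and each number equals the column of its array on the slide. The numbers were therefore used in an alternative only, where a block by number is also a block by column.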

Additional observations from a re-analysis of the deposited data

Results flagged for a closer look

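Of 48 sets of 4 arrays (12 probes in 4 groups), 2 held an array far from the other 3, and chance flags about 1 set in 20. Chrnb1 in WT_SD replicate 4 stood at -0.1124, against -0.624 to -0.590 in the other WT_SD arrays. Chrne in CB1KO_HFHS replicate 1 stood at -1.1454, against -0.318 to -0.250 in the other CB1KO_HFHS arrays. That array also has the widest signal spread, and Chrne differed by 1.28 on HFHS without it, against 1.07 with it.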

How the results depend on the processing

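Dropping both arrays whose signal spread was unusual and a covariate for that spread were chosen after seeing the data. The count of members past the threshold, 0 in each comparison, was 1 averaged over diets on the deposited z-scores (Ache), with the filter on all 16 arrays and with a variance trend (Chrnb1 in both), 2 without both unusual arrays (Chrnb1 and Chrnd) and with the covariate (Chrnb1 and Ache), and 4 with array weights (Chrnb1, Chrnd, Chrne and Ache). On HFHS it was 1 with that filter, with the mean of a gene's probes, with the trend and without both arrays (Chrnb1 each), 2 with the covariate and 4 with array weights, with the same genes as averaged. These counts cover the genes chosen by role. For HFHS against SD in CB1KO, Chrna1 had 1.79 with array weights, against 1.50. No test is given for it, since it was picked on values this contrast shares. Calls over all genes moved too: averaged over diets there were 205, against 1961 with array weights, 1750 with the covariate, 891 without both arrays and 219 to 270 with the z-scores, filter and trend. On HFHS there were 68, against 2096 with array weights, 355 with the covariate, 193 without both arrays and 85 to 106 with the filter, probe mean and trend. Leaving out single arrays gave 0 to 1 averaged and on HFHS, the 1 being Chrnb1, without WT_SD replicate 4 or CB1KO_HFHS replicate 1 in both and without CB1KO_SD replicates 2 or 3 averaged. Elsewhere the count stayed 0, and with the replicate number as a block it was 0 in every comparison. Deviations of same-numbered arrays correlated from -0.754 to 0.609 and those of differently numbered arrays from -0.699 to 0.661. Of 16 arrays 5 matched their own number best. This shows no pairing but cannot settle whether animals were paired, since the number is also the slide column. The cause of these changes was not tested.

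Signs turned only for values that did not pass. For CB1KO minus WT, Dok7 on SD was -0.0693 with normexp and -0.0403 with quantile normalization, Musk on SD 0.0356 and Dok7 on HFHS -0.0674 with array weights, and Rapsn on SD -0.0789 with array weights and -0.0701 without both unusual arrays. The Dok7 interaction was -0.38 with array weights and -0.21 without both arrays. For HFHS minus SD in CB1KO, Chrng was 0.033 with normexp, 0.14 with quantile normalization, 0.10 on z-scores, 0.0529 without both arrays and 0.0025 with the covariate, Rapsn was -0.22 on z-scores, and Dok7 was -0.0313 with array weights, -0.10 without both arrays and -0.008 with the covariate. In WT, Chrne was 0.0316 with normexp, Chrnb1 0.0435 on z-scores and 0.0169 with array weights, and Dok7 -0.0613 with the covariate. Without single arrays the signs of 12 values turned. On SD, Chrng ran from -0.0688 to 0.64, Dok7 from -0.12 to 0.28 and Rapsn from -0.0701 to 0.0853. The interaction ran from -0.10 to 0.45 for Chrnd and from -0.11 to 0.30 for Dok7. HFHS minus SD in CB1KO ran from -0.40 to 0.0268 for Chrng and from -0.10 to 0.13 for Rapsn. In WT it ran from -0.0196 to 0.39 for Chrna1, -0.10 to 0.45 for Chrna9, -0.13 to 0.0445 for Chrnb1, -0.0393 to 0.35 for Chrnd and -0.007 to 0.29 for Dok7. The dim signal of Chrng and Chrna9 limits what their WT levels show.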
